A study of Mus musculus with 6 samples.

Results

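The late neutrophil granule genes are those that a granulocyte switches on as it matures and fills its secondary and tertiary granules. The 10 genes taken here were S100a8, S100a9, Camp, Ngp, Ltf, Lcn2, Mmp8, Mmp9, Stfa1 and Itgam. The choice was by name, for their known place in mature neutrophils, but earlier results of these data were known when it was made. They were found among 34821 gene names on the array, and all 10 were among the 15682 genes tested. They were read by 13 of 55681 probes and 22 of 59305 non-control spots. Itgam had 3 probes, Camp had 2, and the single Mmp9 probe was printed as 10 spots.

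The RNA came from freshly sorted LSK cells, a mouse fraction without lineage markers but with Sca-1 and c-Kit on the surface, which holds stem cells and multipotent progenitors. The NIKaly/aly mice, 3 samples numbered 2, 4 and 6, carry on both copies the aly allele, a point mutation that disables NIK, the NF-kB inducing kinase encoded by Map3k14. The wild-type mice, 3 samples numbered 1, 3 and 5, carry the normal kinase. The allele is in the germline and so in every cell of the animal. The tissue of origin, strain background, age, the antibodies of the sort and whether animals were pooled are not given in the sources used here. The study asked how the defective kinase, which cannot start alternative NF-kB signalling, alters expression in these cells. The labels do not tie the samples to different animals, and the p-values below therefore reflect only how these samples vary, part of which may be technical.

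Granule proteins appear in a set order as neutrophils mature. Primary (azurophil) granules, with myeloperoxidase and the serine proteases, are filled at the promyelocyte stage. Secondary granules with lactoferrin and cathelicidin follow in myelocytes, and tertiary granules with gelatinase are filled after those. C/EBP factors and PU.1 drive this program, with C/EBP epsilon needed for the secondary granule genes. Stem cells and multipotent progenitors are not known for high levels of these late transcripts, while maturing neutrophils of the marrow are.

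Probes are shown for 3 genes that followed one another closely (S100a8, Ltf and Ngp) and for the Itgam stretches whose readings went with them. Each is 60 bases, from the scanner files, 5′ to 3′ in the sense of the transcript, in lower case with no part marked. The S100a8 probe lies at chr3:90473778-90473837 on the mm9 build, plus strand. The Ltf probe lies at chr9:110942873-110942932, plus strand. The Ngp probe lies at chr9:110324266-110324814, plus strand, where its 60 bases span 549 bases of genome. The Itgam probes shown lie at chr7:135212140-135212199 and chr7:135260275-135260334, plus strand, at transcript positions 270 and 3410 in the files. Exon and UTR annotation of that build was not used here.
S100a8: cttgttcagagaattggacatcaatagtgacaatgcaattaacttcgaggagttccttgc
Ltf: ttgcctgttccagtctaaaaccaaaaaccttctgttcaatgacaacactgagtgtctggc
Ngp: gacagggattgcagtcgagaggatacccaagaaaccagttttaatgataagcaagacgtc
Itgam, position 270: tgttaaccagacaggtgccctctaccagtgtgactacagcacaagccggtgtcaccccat
Itgam, position 3410: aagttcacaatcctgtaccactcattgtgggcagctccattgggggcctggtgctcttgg

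The stretches just before the start sites are shown for 4 of the genes that moved together, because factors of the granulocyte program can bind near start sites. They are the 250 bases before the RefSeq start on GRCm38.p6, read in the gene's own sense, with every match to the searched C/EBP and PU.1 letters in capitals. All 4 hold the C/EBP letters, while the stretches of Camp and S100a8, which moved with them, do not. Ngp lies at chr9:110419558-110419807 on the plus strand. Ltf lies at chr9:111019042-111019291 on the plus strand. Lcn2 lies at chr2:32387740-32387989 on the minus strand. Mmp8 lies at chr9:7558179-7558428 on the plus strand.
Ngp: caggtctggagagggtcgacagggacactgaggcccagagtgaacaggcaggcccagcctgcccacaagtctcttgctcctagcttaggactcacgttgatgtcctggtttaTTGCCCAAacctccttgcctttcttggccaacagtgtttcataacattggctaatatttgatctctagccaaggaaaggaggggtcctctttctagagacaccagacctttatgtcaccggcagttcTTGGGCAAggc
Ltf: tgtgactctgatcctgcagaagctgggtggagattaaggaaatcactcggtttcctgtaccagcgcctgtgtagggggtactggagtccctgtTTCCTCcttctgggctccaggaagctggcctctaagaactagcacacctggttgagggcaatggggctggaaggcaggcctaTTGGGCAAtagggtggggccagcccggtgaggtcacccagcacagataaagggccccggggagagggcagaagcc
Lcn2: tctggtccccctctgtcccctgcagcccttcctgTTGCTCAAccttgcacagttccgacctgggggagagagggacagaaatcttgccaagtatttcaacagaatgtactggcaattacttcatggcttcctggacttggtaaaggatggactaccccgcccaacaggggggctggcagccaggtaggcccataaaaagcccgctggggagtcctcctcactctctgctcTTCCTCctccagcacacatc
Mmp8: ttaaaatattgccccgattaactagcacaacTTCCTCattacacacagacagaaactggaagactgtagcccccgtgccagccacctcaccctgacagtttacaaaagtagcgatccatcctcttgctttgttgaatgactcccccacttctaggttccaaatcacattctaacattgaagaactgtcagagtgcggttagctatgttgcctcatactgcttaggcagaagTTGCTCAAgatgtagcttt

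Of the 10 genes, 9 were matched to an upstream stretch of this kind; the exception was Mmp9. The C/EBP letters TTGCNNAA, searched on both strands, were found in 6 of the 9: S100a9, Ngp, Ltf, Lcn2, Mmp8 and Stfa1. They were found in 9.56% of all 32851 stretches of the same length. The PU.1 letters GAGGAA, on both strands, were in 6 of the 9: S100a8, Ltf, Lcn2, Mmp8, Stfa1 and Itgam. They were in 23.3% of all stretches. Camp held neither the C/EBP nor the PU.1 letters. The NF-kB (kB) motif, on both strands, was in 0 of the 9 and in 4.65% of all stretches. The Ngp stretch held the C/EBP letters at 2 places, 138 to 131 and 11 to 4 bases before the start, and those of Ltf lay 75 to 68 bases before it. No C/EBP match overlapped a PU.1 match. A match is a run of letters and not a bound site, and no match says only that these letters are not in this window.

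All 10 genes were bright or measurable in every sample, with signal well above background on all 6 arrays by the probe used and no spot saturated. Levels are log2 signal with the 75th percentile of the same array subtracted. The level of 1 gene's probe cannot be set against that of another. None of the 10 differed between genotypes beyond the spread between samples, and 9 of the 10 means read slightly lower in NIKaly/aly. The larger spread lay between samples. All but S100a9, Stfa1 and Itgam were highest in samples 1 and 2, intermediate in 5 and 6 and lowest in 3 and 4, and each of these pairs holds 1 sample of each genotype. S100a9 differed from this order only in that sample 2 lay just below 5 and 6.

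The calgranulins come first. S100a8 and S100a9 form the calcium-binding heterodimer calprotectin, a major protein of the neutrophil cytosol, and are not granule proteins themselves. S100a8 read 9.58, 7.70 and 9.03 in NIKaly/aly 2, 4 and 6, against 10.43, 7.46 and 8.89 in wild type 1, 3 and 5. The ranges overlapped, and samples 3 and 4 were the low ones in both genotypes. The difference was -0.16 ± 0.80 (SE, n = 3 per genotype, 95% interval -2.01 to 1.69; limma, Benjamini-Hochberg adjusted p = 0.99998). S100a9 read 10.84, 9.54 and 11.18 in NIKaly/aly samples, against 11.84, 9.32 and 10.91 in wild type. Its groups also overlapped, and NIKaly/aly 6 rather than 2 was the highest mutant sample. The S100a9 difference was -0.17 ± 0.76, with an interval of -1.92 to 1.58.

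Camp, Ngp, Ltf and Lcn2 encode proteins of the secondary granules. Camp encodes the antimicrobial cathelicidin, Ltf the iron-binding lactoferrin, Lcn2 the siderophore-binding lipocalin-2, and Ngp a cystatin-like granule protein. Camp read 9.71, 7.19 and 9.08 in NIKaly/aly 2, 4 and 6, against 10.18, 7.29 and 8.88 in wild type 1, 3 and 5. Ngp read 7.74, 4.87 and 7.12 in NIKaly/aly, against 8.33, 5.05 and 6.84 in wild type. In both genes the 2 genotypes covered nearly the same range, and each pair of consecutive samples sat together. Ltf read 7.98, 5.34 and 7.32 in NIKaly/aly, against 8.59, 5.57 and 7.34 in wild type. Lcn2 read 8.53, 5.71 and 7.75 in NIKaly/aly, against 9.12, 5.83 and 7.62 in wild type. Ngp and Lcn2 had the widest spread of the 10 genes, 3.45 and 3.41 log2 units from the lowest to the highest array. Their genotype differences were -0.16 ± 0.95 for Ngp and -0.19 ± 0.95 for Lcn2. They were -0.12 ± 0.87 for Camp and -0.29 ± 0.89 for Ltf (limma, adjusted p = 0.99998 for each of these genes). The intervals were wide, and that of Ngp ran from -2.35 to 2.03.

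The metalloproteinases Mmp8, the neutrophil collagenase of secondary granules, and Mmp9, the gelatinase of tertiary granules, followed the same order of samples. Mmp8 read 4.13, 1.71 and 3.55 in NIKaly/aly, against 4.24, 1.78 and 3.83 in wild type. Mmp9 read 2.28, -0.31 and 1.83 in NIKaly/aly, against 2.79, 0.16 and 1.88 in wild type. Samples 3 and 4 were again low and the groups overlapped. The differences were -0.15 ± 0.78 for Mmp8 and -0.34 ± 0.82 for Mmp9 (limma, adjusted p = 0.99998). The 10 Mmp9 spots of an array had an SD of 0.084 to 0.146, while its array means covered 3.1. The spread between spots covers only the reading of 1 labelled sample, without sorting, amplification or labelling.

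Itgam encodes CD11b, the alpha chain of the Mac-1 integrin, which neutrophils store in granules and show on the surface. Its brightest probe read 3.52, 3.81 and 4.89 in NIKaly/aly, against 4.18, 3.82 and 4.74 in wild type, and did not follow the order of the other genes. Its difference was -0.17 ± 0.43 (limma, adjusted p = 0.99998). The probe at transcript position 270 read -0.97, -2.55 and -0.63 in NIKaly/aly, against -0.23, -2.30 and -1.11 in wild type. The probe at position 3410 read 1.30, 0.17 and 1.15 in NIKaly/aly, against 1.64, 0.32 and 1.18 in wild type. Both of these placed samples 3 and 4 lowest, as the other genes apart from Stfa1 did, and both differed by -0.17 between genotypes. Across the 6 arrays their r to the mean of the other 9 genes was 0.972 and 0.988, against 0.277 for the brightest probe. That probe, at chr7:135261755-135261814 and transcript position 4431, holds a run of 10 CA repeats. The part of the repeat in its reading was not tested. The rule of taking the brightest probe thus decided which profile stood for Itgam, though not its mean difference.

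The 2 Camp probes gave the same picture, but they are not independent. They share 50 bases, of which 48 match, with A16G and T20C between them, counted from 1 at the 5′ end of the probe that starts earlier in the transcript. The second probe read 8.34, 5.90 and 7.37 in NIKaly/aly, against 8.64, 5.97 and 7.34 in wild type. Its difference was -0.11, and r between both probes was 0.993 across the 6 arrays.

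**Figure D1:**
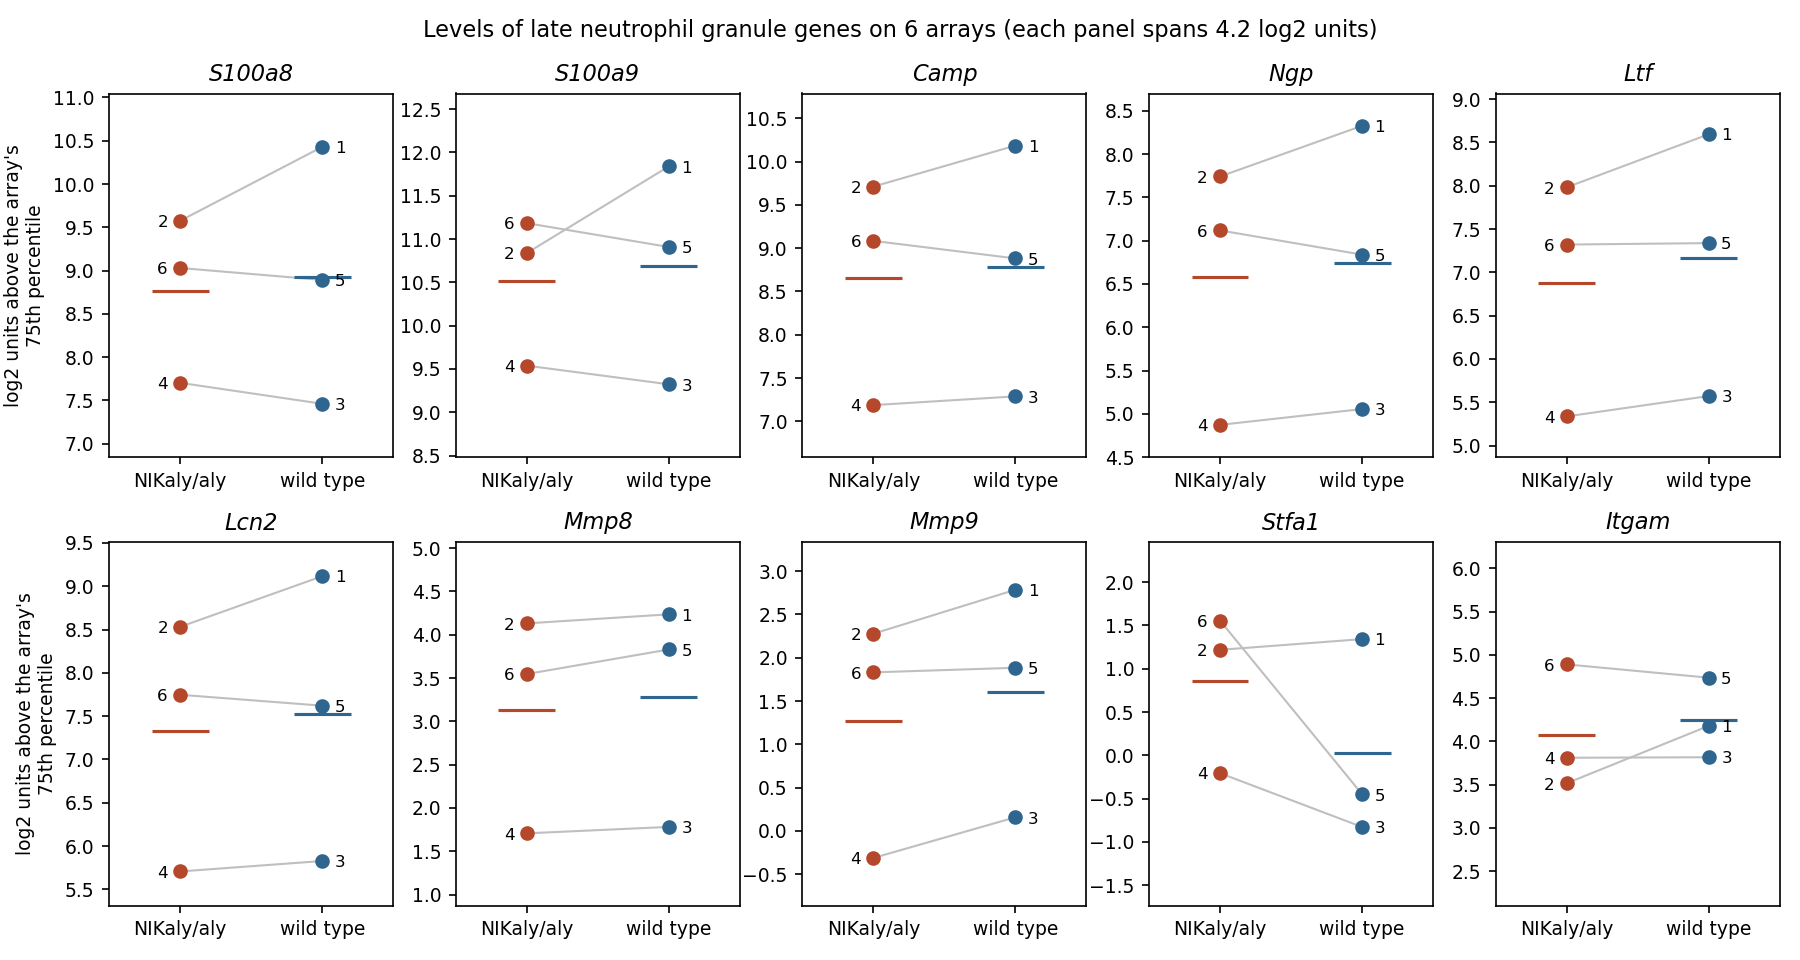
Level of each of the 10 genes on each array, as log2 signal with that array's 75th percentile subtracted (vertical axis, every panel spanning 4.2 units), for NIKaly/aly (left) and wild type (right). Points are single arrays with their sample numbers, horizontal bars are the means of 3 arrays, and grey lines join consecutive sample numbers; in most panels samples 3 and 4 lie together at the bottom, while Stfa1 and Itgam show another order.

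Stfa1 was the one gene of the 10 whose mean read higher in NIKaly/aly. It encodes a stefin A, a cytosolic inhibitor of cysteine cathepsins abundant in mouse neutrophils. It read 1.22, -0.21 and 1.56 in NIKaly/aly 2, 4 and 6, against 1.34, -0.83 and -0.45 in wild type 1, 3 and 5. The groups overlapped through wild type 1, and the gap came mostly from samples 6 and 5, which differed by 2.0. The difference was 0.83 ± 0.66 (interval -0.68 to 2.34, limma, adjusted p = 0.99998), with NIKaly/aly higher in 2 of the 3 consecutive pairs. With median scaling NIKaly/aly was higher in all 3, by 0.50, 0.49 and 1.81 for samples 2, 4 and 6. The mouse stefin A genes are near copies of each other, and a probe for one may bind transcripts of another, so this value is uncertain as to the gene. The other stefin A entries were looked up after these values were seen. BC100530 tracked Stfa1, differing by 0.96 with -0.20, 0.87 and 2.22 within the pairs. Stfa2 differed by 0.06, Stfa3 by -0.16 and Stfa2l1 by -0.32. In the pair of samples 6 and 5 all 5 entries read higher in NIKaly/aly 6, Stfa3 by 1.37, Stfa2 by 0.72 and Stfa2l1 by 0.29. In the pair of samples 2 and 1 all 5 read lower in NIKaly/aly 2. None of the 5 was called.

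Over the 10 genes, 0 were called at an adjusted p under 0.05, where 0 of the 15682 genes were (0%), and 0 had an unadjusted p under 0.05, where 208 genes did (1.33%; limma). The median of the 10 differences was -0.17, with 9 below zero, beside a median of -0.0081 over all genes tested, of which 51.5% were below zero. In 0 of the 10 did the genotypes fail to overlap, beside 4.57% of all genes. Ltf, Mmp8 and Mmp9 were lower in NIKaly/aly in all 3 consecutive pairs, 3 of 10 beside 16.2% of all genes. This depended on the scaling, since with median scaling, which the authors' table holds, sample 2 minus sample 1 was 0.011 for Ltf, 0.52 for Mmp8 and 0.12 for Mmp9. None of the 10 was higher in all 3, beside 13.8%. That count also depended on the scaling. Stfa1 was higher in all 3 with median scaling (0.50, 0.49 and 1.81) and unscaled (1.29, 0.46 and 1.34). The share of all genes was not taken with those scalings. The 10 genes share their samples and vary together, so 9 of 10 in 1 direction is not 9 separate observations. Leaving out 1 array turned the direction. Without NIKaly/aly 4 the median of the 10 became 0.52, and without wild type 1 it became 0.50, with 9 of 10 higher in each case. With NIKaly/aly 2 left out it was -0.65, and with wild type 3 left out -0.90. It was 0.05 without samples 1 and 2, with 7 of 10 higher.

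Consecutive samples resembled each other for these genes far more than samples of 1 genotype did. The mean of Ngp was 8.03 for samples 1 and 2, 4.96 for samples 3 and 4 and 6.98 for samples 5 and 6. The range between such pair means was 1.91 to 3.07 for the 8 genes other than Stfa1 and Itgam, while the largest difference within a pair was 0.28 to 1.0. For Stfa1 the largest difference within a pair, 2.0, exceeded the 1.80 between pairs. The labels do not say what consecutive numbers share. With these pairs as a block, the differences kept their size and their intervals narrowed, for Ngp to between -0.56 and 0.24 and for Mmp8 to between -0.45 and 0.14. The adjusted p with the block was 0.695 to 0.898 for the 10 genes (limma), so 0 were called, beside 2 of all genes (0.0128%). At an unadjusted p under 0.05 it was 0 of 10, beside 7.35%. For Stfa1 the interval with the block was -0.039 to 1.71. Within the pair of samples 2 and 1 the median of the 10 was -0.59, within 4 and 3 it was -0.09, and within 6 and 5 it was 0.15, beside medians over all genes of 0.012, -0.0016 and -0.020 in the same pairs. With median scaling the 10 had 0.039, -0.22 and -0.048, beside 0.64, -0.14 and -0.21 over all genes. Unscaled they had 0.83, -0.25 and -0.51, beside 1.43, -0.16 and -0.68. The sign within a pair thus depended on the scaling. Samples 1 to 4 lie in slide row 1, where the median was -0.34, and samples 5 and 6 in row 2.

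**Figure D2:**
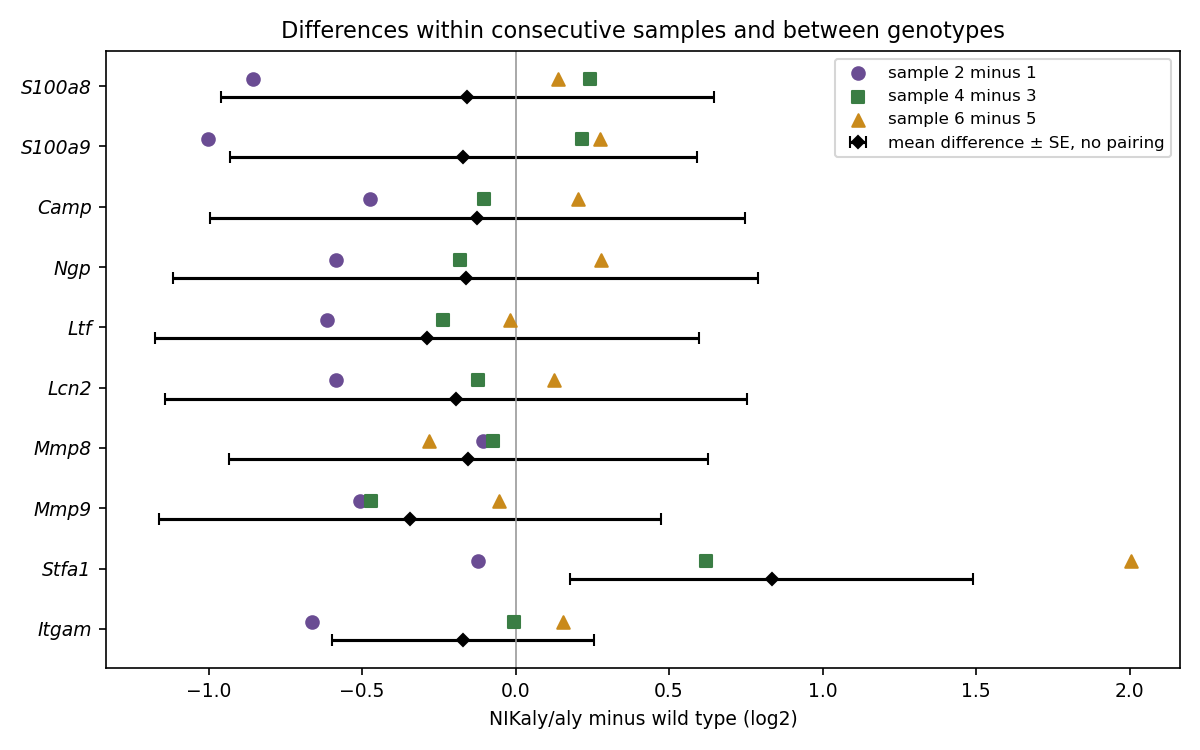
NIKaly/aly minus wild type for each of the 10 genes, in log2 units (horizontal axis). Coloured symbols are the differences within the consecutive samples 2 and 1, 4 and 3, and 6 and 5, and black diamonds are the mean difference with its SE without pairing; the SE bars of 9 genes cross zero, that of Stfa1 does not, and its symbol for samples 6 and 5 lies at 2.0.

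The scaled levels of these genes ran against the brightness of the array. The 75th percentile of the processed signal was 126, 201 and 50.8 on NIKaly/aly 2, 4 and 6, against 47.0, 225 and 80.2 on wild type 1, 3 and 5. Arrays 3 and 4, where the genes other than Stfa1 and Itgam were lowest, were the brightest by this percentile, and 43.8% (NIKaly/aly 4) and 45.6% (wild type 3) of their spots were well above background, against 33.1% to 38.1% on the others. The mean of the 10 levels was 6.55, 4.53 and 6.33 in NIKaly/aly, against 7.10, 4.55 and 6.05 in wild type. Across the 6 arrays its r to the log2 of the percentile was -0.87, and -0.36 without samples 3 and 4, so the relation rested on that pair. Since the percentile is subtracted from each level, it enters both measures. Without scaling, r of the mean of the 10 to the log2 of the percentile was 0.08 over the 6 arrays. It was 0.77 without samples 3 and 4, so the negative relation was seen only with the percentile subtracted. Without any scaling the mean of the 10 log2 signals was 13.52, 12.19 and 11.996 in NIKaly/aly, against 12.66, 12.36 and 12.37 in wild type. Sample 2 then stood above the others, and samples 3 and 4 were no longer lowest. The unscaled S100a9 signal was 229851, 149730 and 118110 in NIKaly/aly, against 172240, 143901 and 154154 in wild type. Unscaled, 8 of the 10 genes read higher in NIKaly/aly with a median of 0.033, while the median of all genes was 0.19. Leaving out the scaling adds the same amount to the difference of every gene, so these turned signs are not particular to the 10. The part of the amount of labelled RNA in these levels was not tested. In such bulk samples a smaller number of neutrophil-lineage cells and less of their RNA per cell cannot be told apart.

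**Figure D3:**
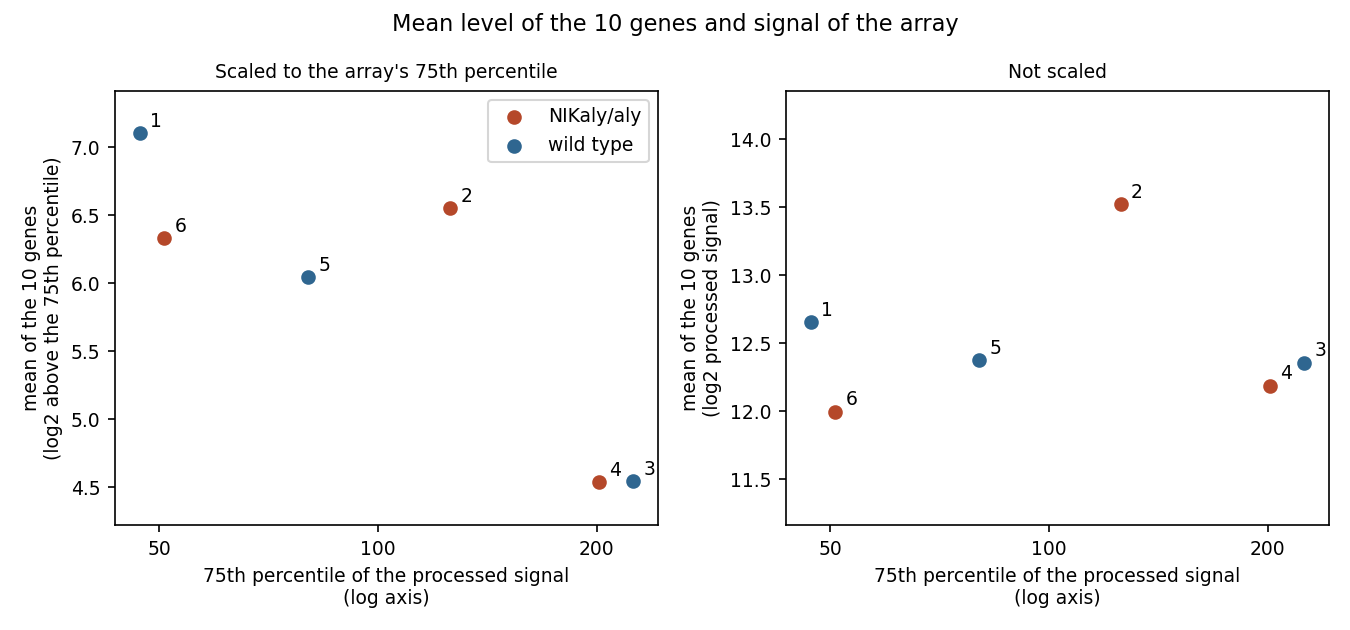
Mean of the 10 genes on each array against the 75th percentile of that array's processed signal (log axis). On the left the mean is the log2 signal less that percentile and samples 3 and 4 lie lowest; on the right it is the mean log2 signal without scaling and sample 2 lies highest. Points are single arrays with their sample numbers.

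Ratios among the 10 genes on the same array do not depend on that scaling. Set against the mean of the 10 on its array and centred over the arrays, the 8 genes other than Stfa1 and Itgam stayed within ranges of 0.51 (Camp) to 0.88 (Ngp), although their levels covered 2.52 to 3.45. Ngp and Lcn2 were 0.38 and 0.41 above their own average on NIKaly/aly 2, and 0.42 and 0.44 above it on wild type 1. They were -0.47 and -0.40 on NIKaly/aly 4, and -0.30 and -0.29 on wild type 3. These genes therefore swung more between samples than the average of the 10, in both genotypes alike. S100a9 was lowest on NIKaly/aly 2, at -0.47. Stfa1 covered 1.76, and its relative values of 0.08, 0.67 and 0.64 in NIKaly/aly were all above those of -0.35, 0.04 and -1.08 in wild type. That gap of 0.93 was not tested, since it was found after the values were seen, and a relative value moves with the other 9 genes. The nearest values of the genotypes, 0.08 and 0.04, lay close together, and the Stfa1 levels themselves overlapped. No share over all genes was taken for such relative values, so their separation cannot be weighed.

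**Figure D4:**
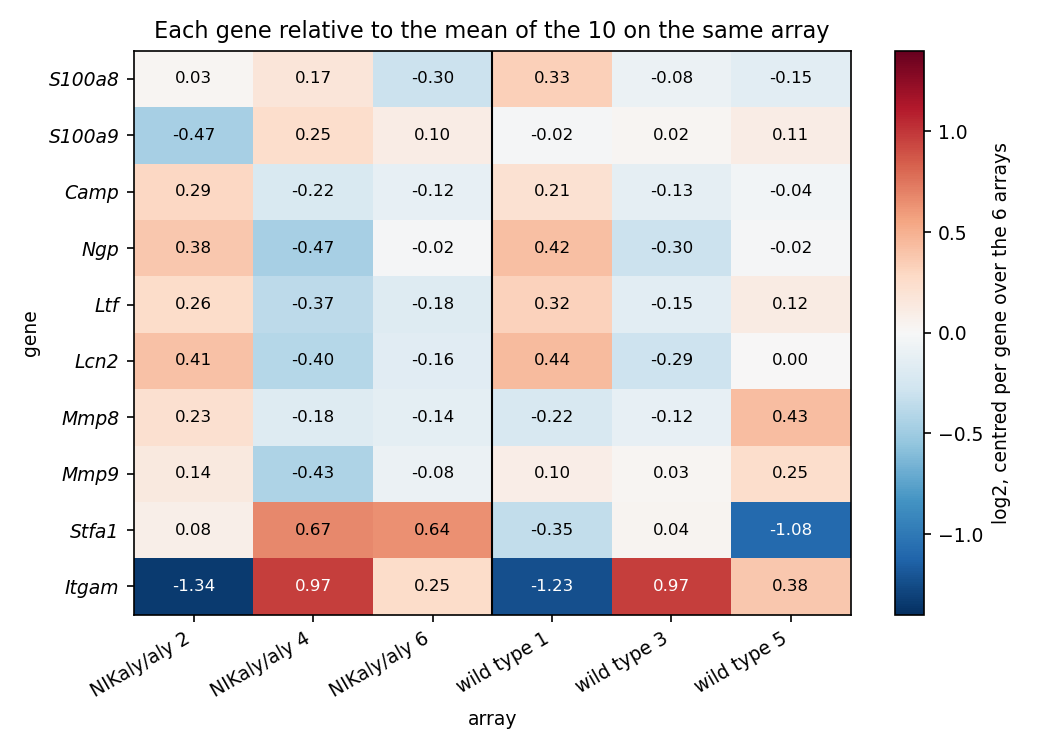
Level of each gene relative to the mean of the 10 on the same array, centred per gene over the 6 arrays, in log2 units (colour and printed value), with NIKaly/aly arrays left of the line and wild-type arrays right of it. Stfa1 lies between 0.08 and 0.67 on NIKaly/aly arrays and between -1.08 and 0.04 on wild-type arrays, and Itgam, by its brightest probe, is 1.34 and 1.23 below its average on samples 2 and 1. The Stfa1 levels themselves overlap between the genotypes.

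Pearson's r between the levels of 2 of the 10 genes, across the 6 arrays, had a median of 0.953 over the 45 pairs and a minimum of 0.166, which involved Itgam. For the 28 pairs that leave out Itgam and Stfa1 it was 0.936 to 0.9997. Without samples 3 and 4 these 28 had a median of 0.970 and a minimum of 0.371. These values are descriptions. The arrays share the scaling, they fall into pairs, and 6 points are few. Of all genes tested, 603 (3.85%) had an r above 0.9 to the mean standardised profile of the 10 genes. Leaving out entries without a gene symbol, the 8 nearest that are not among the 10 were Acta2 (0.998), Lasp1, Mtr, Rrp12, Lin28a, Prom1, Pstpip2 and Ccdc43 (0.992), over 6 arrays.

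The other genes of mature neutrophils were taken as a list of 43, of which 42 were tested. Their r to the profile of the 10 had a median of 0.937, with 24 above 0.9, among them Cybb (0.991), the oxidase heme subunit, and the surface genes Cd177 (0.987) and Ly6g (0.976). Of the 42, 14 were higher and 28 lower in NIKaly/aly, with a median of -0.14, and 0 were called. Retnlg differed by -0.13, the chitinase-like Chi3l3 by -0.16, the lysozyme Lyz2 by -0.27 and the chemokine receptor Cxcr2 by -0.69. The difference between the mean of the 10 and the mean of these 42 was 3.19, 3.20 and 3.54 in NIKaly/aly, against 3.57, 3.12 and 3.32 in wild type. It thus covered 0.45 across arrays on which the mean of the 10 itself lay between 4.53 and 7.10.

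The primary granule genes, which come earlier in maturation, were measured by 11 genes with a median r of 0.663, 2 of them above 0.9. Elane (neutrophil elastase, 0.979) lay with the late genes, while Mpo (myeloperoxidase, 0.595), Prtn3 (proteinase 3, 0.663) and Ctsg (cathepsin G, 0.637) lay lower. Mpo read 9.28, 8.38 and 8.30 in NIKaly/aly, against 10.15, 8.89 and 9.08 in wild type. Sample 6, middling for the late genes, was the lowest for Mpo, and the groups overlapped. The Mpo difference was -0.72 ± 0.51 (limma, adjusted p = 0.99998, and 0.17 with the pair block), and -0.87, -0.51 and -0.78 within the pairs. Of the 11 genes, 9 were lower and 2 higher in NIKaly/aly, with a median of -0.32 and 0 called. The mean of the 10 late genes minus that of these 11 was 1.03, 0.23 and 1.79 in NIKaly/aly, against 1.15, 0.12 and 1.30 in wild type, so the late and early granule genes did not keep a fixed ratio between samples.

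Among 18 regulators of granulocyte formation the median r was 0.252, and 6 were higher and 12 lower with a median of -0.14 and 0 called. Cebpe, the factor of the secondary granule stage, had an r of 0.978 and read 5.48, 2.82 and 4.64 in NIKaly/aly, against 5.98, 2.99 and 4.75 in wild type. Its samples fell in the same order as the late genes, and its difference was -0.26 ± 0.86. Cebpa, which acts earlier, had an r of 0.382 and a difference of -0.69 ± 0.36. PU.1, listed as Sfpi1, had an r of 0.796, Gfi1 one of -0.508 and the G-CSF receptor gene Csf3r one of -0.476. Csf3r read 5.72, 6.48 and 6.63 in NIKaly/aly, against 5.98, 6.57 and 6.74 in wild type, and so was not low in samples 3 and 4.

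The label of the cells was set against its markers. Kit read 4.66, 5.17 and 5.45 in NIKaly/aly, against 4.65, 5.20 and 4.88 in wild type. Ly6a, which encodes Sca-1, read 2.94, 2.44 and 1.5 in NIKaly/aly, against 3.67, 2.79 and 2.45 in wild type. Both genes that define the gate were well above background on all 6 arrays. An LSK gate usually excludes cells with the products of Itgam and Ly6g, yet Itgam and Ly6g (2.37, 0.02 and 1.59 in NIKaly/aly, against 2.61, 0.10 and 1.72 in wild type) were well above background on all 6. Ly6g thus followed the order of the late granule genes. The 16 tested genes of stem and progenitor identity had a median r of -0.28 to the late profile, with 0 above 0.9, and 11 were higher and 5 lower in NIKaly/aly with a median of 0.15 and 0 called. The part of mature cells left in the sort in these readings was not tested.

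**Figure D5:**
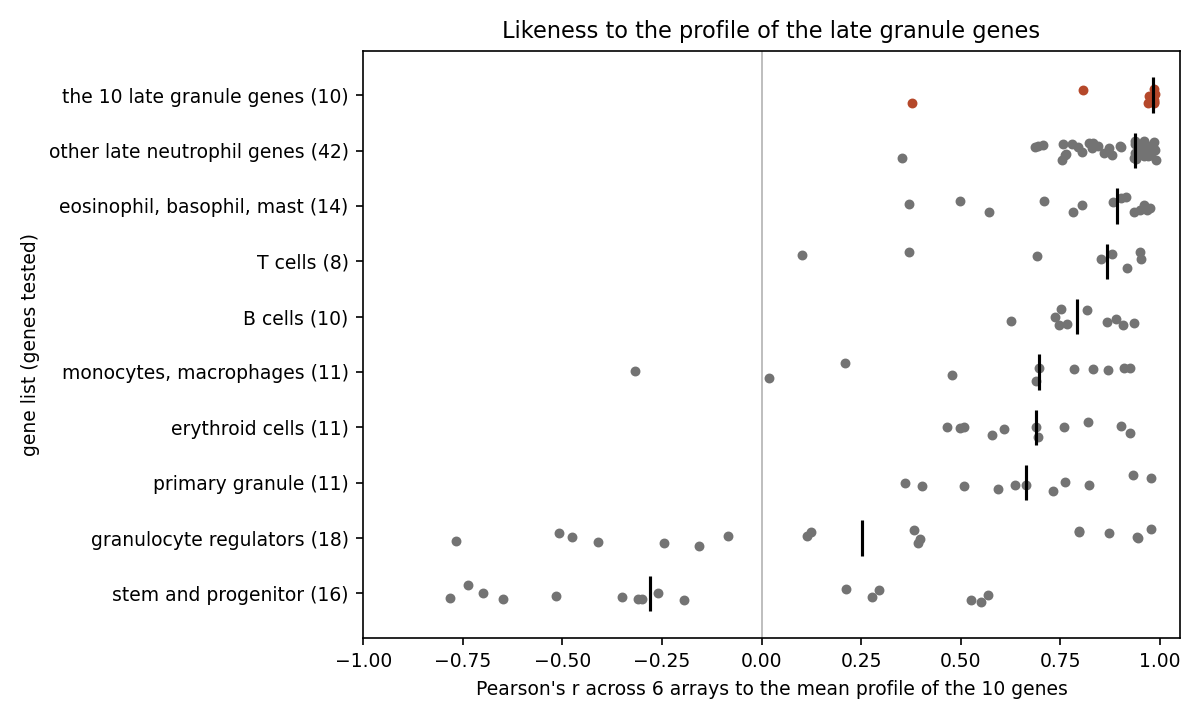
Pearson's r of each tested gene's level across the 6 arrays to the mean profile of the 10 late granule genes (horizontal axis), by gene list with the number of genes tested. Points are genes, bars are medians; the 10 genes contribute to their own profile, the other late neutrophil genes lie around 0.937, and stem and progenitor genes around -0.28.

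Markers of other mature cells moved partly with the late granule genes. The B-cell list had a median r of 0.792, and all 10 of its tested genes were lower in NIKaly/aly, with a median of -0.71 and 0 called. Within samples 2 and 1 the median of this list was -0.95, within 4 and 3 it was -1.85, and within 6 and 5 it was 0.10. Only 3 of the 10 were lower in all 3 pairs, beside 16.2% of all genes. These genes share their samples and are not 10 separate observations. The log2 of its summed level was 4.18 to 6.03 in NIKaly/aly, against 5.13 to 7.03 in wild type, and Cd79a differed by -1.36. For monocytes and macrophages, with 11 tested genes and a median r of 0.697, the sums were 6.22 to 7.71 in NIKaly/aly, against 6.52 to 8.25 in wild type, 9 of 11 were lower, and Mrc1 did not clear background on an array. Csf1r differed by -1.17 ± 0.33 (limma, adjusted p = 0.99998). It did not overlap between the genotypes, and the same held for 4.57% of all genes tested. The erythroid list, 11 genes with a median r of 0.688, had sums of 5.91 to 10.01 in NIKaly/aly, against 6.14 to 11.37 in wild type, with 8 of 11 lower. Hbb-b1 was high in NIKaly/aly 2 and wild type 1, at 6.51 and 7.61, while Hbb-bh1 did not clear background on an array. The T-cell list, 8 genes with a median r of 0.866, had sums of 4.55 to 5.20 in NIKaly/aly, against 4.63 to 5.62 in wild type, with 5 of 8 lower, and Cd8a and Cd8b1 did not clear background on an array. The list of eosinophils, basophils and mast cells, 14 genes with a median r of 0.893, had sums of 3.84 to 7.23 in NIKaly/aly, against 4.49 to 7.57 in wild type, with 11 of 14 lower, and Ms4a2 and Cma1 did not clear background on an array. No gene of these lists was called. Their part in the late granule levels was not tested.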

How the data were processed

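LSK RNA from 3 NIKaly/aly and 3 wild-type samples was amplified, labelled with Cy3 and hybridised to 6 arrays on 1 slide. Per the file headers, the deposited intensity values are a background-subtracted processed signal per spot from Agilent Feature Extraction, version 10.7.3.1. The authors' deposited series table is a ratio, each processed signal over its array's median, matching to a relative difference of at most 1.93e-06 over 55249 single-spot probes.

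From the intensities, log2 of the processed signal was taken and the 75th percentile among the 59305 non-control spots of that array subtracted. Outlier-flagged spots were left out, spots of a probe averaged, and probes kept that stood well above background on 3 or more of the 6 arrays. The brightest probe stood for a gene. The genotype test used limma 3.58.1 under R 4.3.3 (lmFit, eBayes with trend, two-sided, 4 residual degrees of freedom, Benjamini-Hochberg over 15682 genes at 0.05). The fit was also run on simulated data with independent noise for each gene and array. Those data lack the likeness of consecutive samples, so that run does not tell how the fit behaves on these arrays. The number of arrays limits the precision. The members, gene lists and tests were chosen with earlier results of these data known. Named genes were the 10 members, 24 genes chosen for known roles, and the 8 other tested genes most alike to the members' profile. Entries without a gene symbol were left out of those 8. Some of these genes are not reported here. Others were named after their values were seen. Of the listed genes, Spi1, Mcemp1 and Siglecf were matched by accession to Sfpi1, 1810033B17Rik and Siglec5. Promoter stretches are RefSeq's on GRCm38.p6. Alternatives covered scaling, background, probe filters, blocks, weights and left-out arrays.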

Additional observations from a re-analysis of the deposited data

How the results depend on the processing

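None of the 10 genes was called under any alternative run. The count of all genes past the threshold, 0 of 15682, with 208 at an unadjusted p under 0.05 (limma), became 10 with median scaling, 9 with the authors' deposited table, 5 with array weights, 2 with the consecutive-pair block, 2 with no filter on dim probes, 1 with normexp background, 1 with no scaling and 1379 with array column as a random block. The cause was not tested. Leaving out 1 array gave 0 to 1, the 1 without wild type 3. The median over the 10 genes stayed between -0.44 and -0.07 under the other alternatives, except without samples 1 and 2 and with no scaling between arrays, which was added after the data were seen. Without samples 1 and 2 the differences turned to 0.19 (S100a8), 0.25 (S100a9), 0.051 (Camp), 0.049 (Ngp), 0.0026 (Lcn2) and 0.074 (Itgam). With no scaling, which moved the median of all genes to 0.19 and adds the same amount to every gene, they turned to 0.042 (S100a8), 0.030 (S100a9), 0.076 (Camp), 0.037 (Ngp), 0.0068 (Lcn2), 0.046 (Mmp8) and 0.028 (Itgam). Leaving out each array in turn, the difference ranged from -0.89 to 0.59 for S100a8, -0.85 to 0.40 for S100a9, -0.87 to 0.61 for Camp, -1.01 to 0.69 for Ngp, -1.09 to 0.48 for Ltf, -1.04 to 0.62 for Lcn2, -0.90 to 0.56 for Mmp8, -1.07 to 0.45 for Mmp9, -0.58 to 0.11 for Itgam and 0.41 to 1.49 for Stfa1, which kept its direction. The median over the 10 ranged from -0.90 to 0.52. Signal over background did not limit the 10 genes, which were well above it on every array.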
